A study of Homo sapiens with 24 samples.

Results

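The integrin genes followed were ITGA2, ITGA3, ITGA5, ITGA6, ITGAV, ITGB1, ITGB3, ITGB4, ITGB5 and ITGB8, chosen by symbol, 10 of the 18852 genes that the table's probes name. All probes whose single platform symbol is a member were taken, which gave 23 of the 48803 probes of the value table. The values are log2 intensities from Illumina expression arrays, as the authors deposited them, and a background level of 6.97 was derived from the bulk of dim probes.

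Integrins are cell-surface receptors made of an alpha and a beta subunit, and each pairing binds its own set of matrix proteins. Their short cytoplasmic tails recruit talin, kindlin and focal adhesion kinase, except that the long tail of ITGB4 anchors hemidesmosomes to keratin. In normal prostate epithelium, basal cells carry the laminin receptors made with ITGA6, ITGA3 and ITGB4, and ITGAV pairs mainly with the RGD-binding beta subunits.

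The 24 arrays form 4 groups of 6. The LNCaP arrays, from a line of prostate cancer cells, hold RNA taken on day 4 after transient transfection with HIP1 or with empty vector. The PNT1a arrays come from immortalised prostate epithelial cells holding either construct stably, with the selection drug G418 at 0.8 mg/ml in the medium. Both lines grew in RPMI with 10% serum, so the lines differ in the kind of transfection and in the drug as well as in origin. HIP1 is an endocytic adaptor that binds clathrin, and the series title ties it to prostate cancer through STAT3. The labels do not say whether a stable line is a clone or a pool, nor whether the 6 biological replicates of a group came from separate cultures, so p-values measure the spread between these arrays only.

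The HIP1 probe (ILMN_1701403) averaged 7.29 ± 0.15 in LNCaP HIP1-labelled arrays and 7.40 ± 0.16 in LNCaP vector arrays (SD, n = 6 each), so HIP1-labelled minus vector was -0.11 (95% interval -0.29 to 0.06). In PNT1a it averaged 7.79 ± 0.35 in HIP1-labelled arrays and 7.69 ± 0.21 in vector arrays, giving 0.10 (interval -0.23 to 0.43). Two-sided exact permutation tests over all splits of a line gave p = 0.232 in LNCaP and 0.543 in PNT1a. PNT1a HIP1-labelled array 6 was the lowest of its group at 7.10, and without it the PNT1a difference was 0.24 (limma, adjusted p = 0.0818), while it was 0.02 without vector array 6 (adjusted p = 0.938) and 0.18 with weights per array (adjusted p = 0.0601). No setting called this probe, so the overexpression named in the labels was not detectable with it, and where it lies relative to the HIP1 sequence in the construct is unknown here. For that reason the text speaks of HIP1-labelled arrays and of vector arrays.

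Every array had a median log2 intensity of 6.56 and 12094 to 12102 probes above the level. PNT1a arrays numbered 6 stood apart in both groups, with mean correlations to their own group of 0.919 (HIP1-labelled) and 0.942 (vector), while the remaining PNT1a arrays reached 0.973 or more and LNCaP arrays 0.990 or more. PNT1a arrays fell into 3 clusters by their deviations from the group means over probes that are not members: 2 HIP1-labelled and 2 vector arrays, 3 and 3, and both arrays 6. What these clusters are is not given in the labels. The median within-group SD was 0.207 (HIP1-labelled) and 0.186 (vector) in PNT1a, and 0.120 and 0.126 in LNCaP, so each line was fitted alone for its own comparison.

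Markers were measured to set each line against its label. All 7 measured luminal markers lay above the level on every LNCaP array, among them TMPRSS2 at 12.03 ± 0.17 in HIP1-labelled arrays and 11.46 ± 0.24 in vector arrays. In PNT1a, KLK2 and TMPRSS2 lay below the level on every array, as did the basal keratins KRT5 and KRT14, while the mesenchymal filament gene VIM was at 11.88 ± 0.21 in HIP1-labelled arrays and 12.71 ± 0.17 in vector arrays. PNT1a did carry the simple keratin KRT8, at 10.37 ± 0.57 in HIP1-labelled arrays and 11.15 ± 0.35 in vector arrays. In all, 1 of 7 luminal, 1 of 4 basal and 5 of 9 mesenchymal and fibroblast markers were above the level on every array of each PNT1a group.

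Promoter windows show the DNA around the start sites of the members whose signal differed in PNT1a and that have an entry in the RefSeq promoter table, since probe and protein sequences were not used here. Each window runs from 250 bases before to 50 bases after a start site of GRCh38.p14, and the window richest in G and C was taken for genes with several. Capitals mark matches on either strand to GGGCGG, the GC box bound by Sp factors, the only motif of the search found in the windows printed.
ITGA2, chr5:52989102-52989401, + strand: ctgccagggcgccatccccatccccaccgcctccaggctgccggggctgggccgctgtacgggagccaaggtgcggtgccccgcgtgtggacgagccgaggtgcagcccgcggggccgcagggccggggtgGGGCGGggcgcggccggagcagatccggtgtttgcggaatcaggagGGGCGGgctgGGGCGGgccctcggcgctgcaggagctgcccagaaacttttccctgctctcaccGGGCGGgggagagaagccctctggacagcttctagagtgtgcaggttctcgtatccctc
ITGAV, chr2:186589806-186590105, + strand: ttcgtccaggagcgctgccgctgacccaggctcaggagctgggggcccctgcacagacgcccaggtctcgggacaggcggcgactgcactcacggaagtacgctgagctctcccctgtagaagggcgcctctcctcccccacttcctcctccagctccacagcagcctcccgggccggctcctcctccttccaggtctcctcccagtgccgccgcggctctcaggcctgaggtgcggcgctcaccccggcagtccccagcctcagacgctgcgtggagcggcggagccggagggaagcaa
ITGB1, chr10:32958181-32958480, - strand: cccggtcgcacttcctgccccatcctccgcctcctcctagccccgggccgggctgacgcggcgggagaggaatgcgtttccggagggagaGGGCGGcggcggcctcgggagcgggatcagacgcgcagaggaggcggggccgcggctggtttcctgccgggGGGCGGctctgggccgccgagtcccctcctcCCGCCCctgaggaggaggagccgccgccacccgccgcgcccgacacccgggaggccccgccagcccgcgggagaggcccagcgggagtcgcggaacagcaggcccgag
ITGB5, chr3:124887316-124887615, - strand: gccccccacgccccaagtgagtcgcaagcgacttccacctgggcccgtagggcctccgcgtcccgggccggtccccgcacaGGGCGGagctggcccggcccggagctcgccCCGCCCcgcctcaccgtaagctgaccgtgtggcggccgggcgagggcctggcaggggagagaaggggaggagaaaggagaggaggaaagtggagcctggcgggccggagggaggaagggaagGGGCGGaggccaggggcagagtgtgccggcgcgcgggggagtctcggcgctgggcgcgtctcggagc

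The ITGA2 window holds 4 GC boxes, the ITGB1 and ITGB5 windows 3 each and the ITGAV window 0. Windows existed for 7 of the 10 members, 12 windows in all, and 9 of the 12 held a GC box, against 45% of all 35116 windows of the table. The AP-1 motif TGANTCA was in 1 of the 12, of ITGA5 (7.71% of all windows), and the RUNX motif TGTGGT in 2, both of ITGA6 and overlapping in position (13.1%). TATAAA was in 2 of the 12, of ITGA6 and ITGB1 (11.5% of all windows), and the STAT motif TTCNNNGAA in 0 (7.66%). A match is a description of the letters and not of a bound factor.

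Signal above background came from 10 of the 23 probes, covering 7 of the 10 genes. The 3 genes with no probe above the filter were ITGA6, the laminin-binding partner of ITGB4 (3 probes), ITGB3, the beta subunit of the vitronectin and platelet receptors (1 probe), and ITGB8, a partner of ITGAV that presents latent TGF-beta (1 probe). Dim probes also existed for genes with a bright probe: 1 of 2 for ITGA3, 2 of 4 for ITGB1, 3 of 4 for ITGB4 and 2 of 5 for ITGB5. The 13 untested probes ran from 6.00 to 7.21, and 12 of them were below the level on every array. The exception was the ITGB4 probe ILMN_2317543, which was above the level on 3 of 6 PNT1a HIP1-labelled arrays and on 0 of 6 PNT1a vector arrays. Its means were 6.93 ± 0.24 in HIP1-labelled and 6.86 ± 0.10 in vector arrays (two-sided exact permutation test, p = 0.515). The highest of these vector arrays, at 6.966, lay just under the level. A dim probe gives only a bound and does not show that the transcript was absent.

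**Figure D1:**
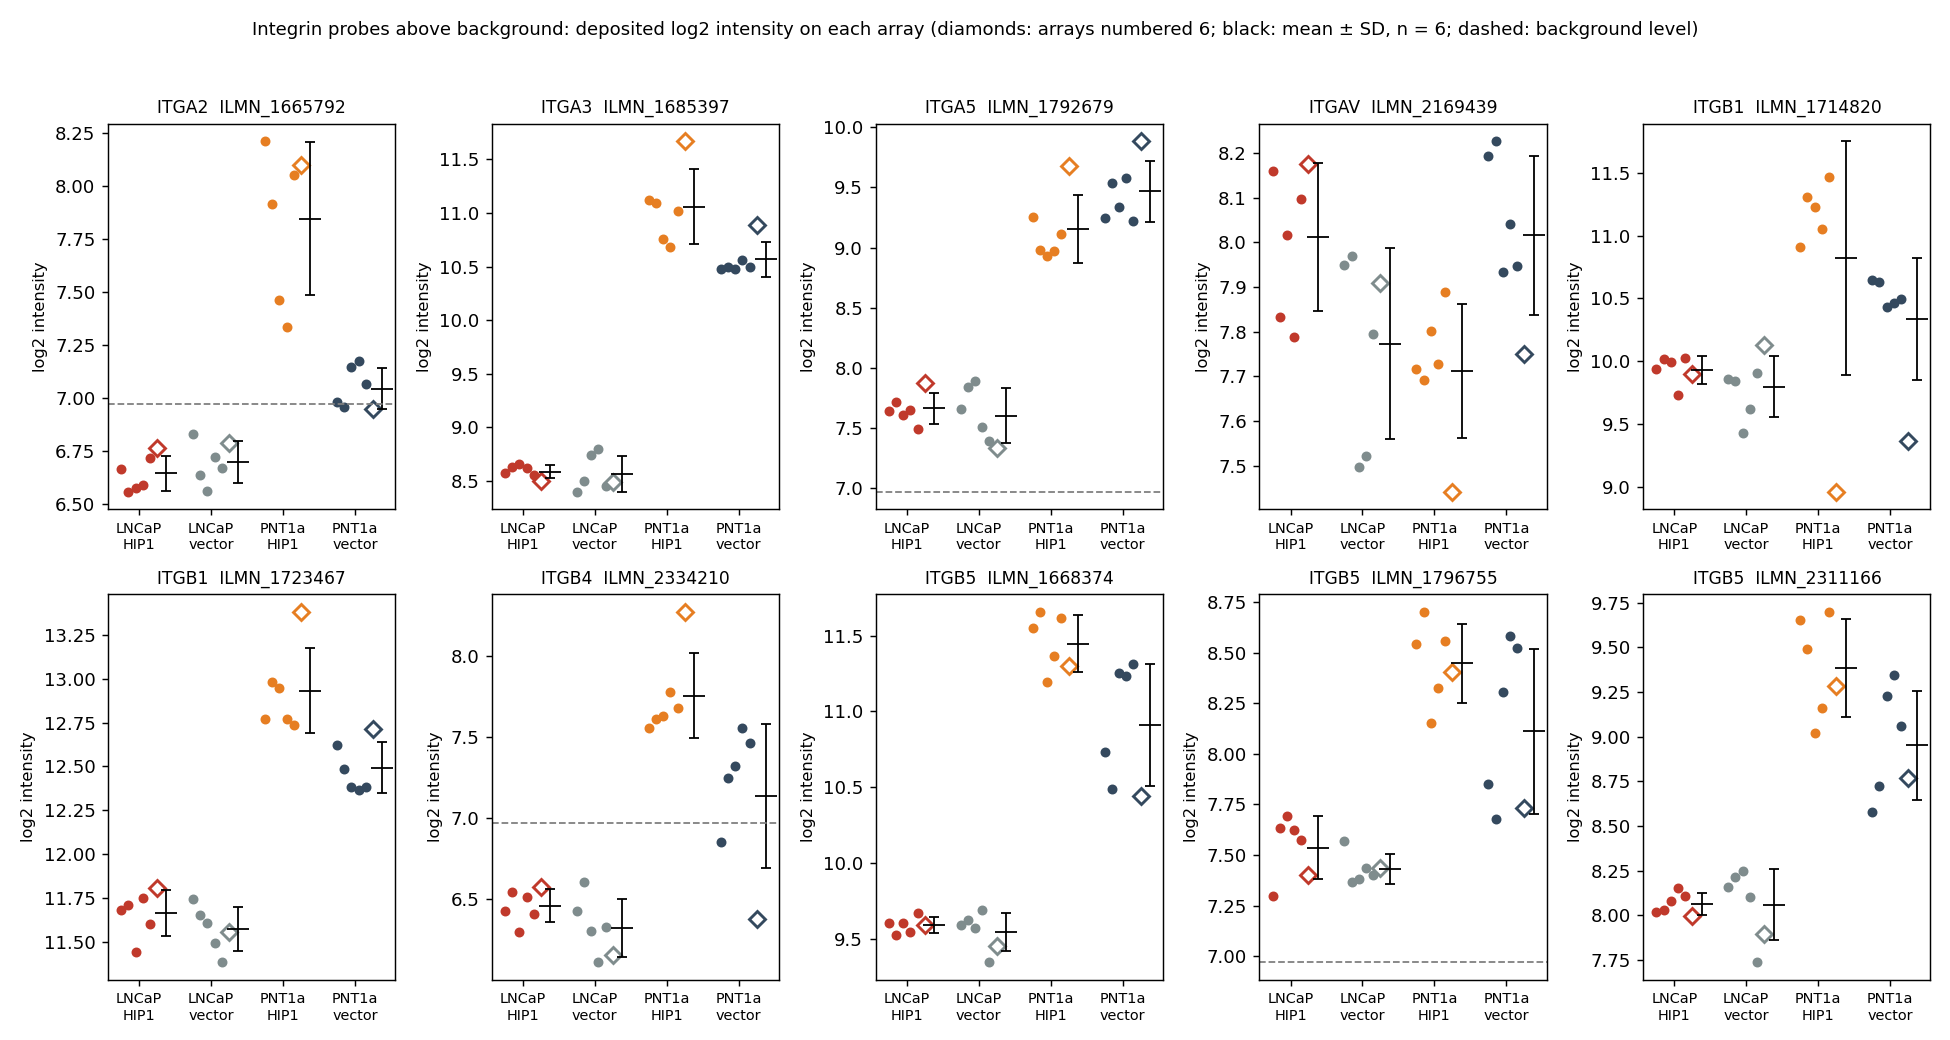
Deposited log2 intensity (vertical axis) of the 10 integrin probes above background on each of the 24 arrays, by group along the horizontal axis, with diamonds for arrays numbered 6, black bars for the mean ± SD of 6 arrays and a dashed line at the background level of 6.97 where it falls within or near a panel. ITGA3 and ITGA5 sit lower on every LNCaP array than on any PNT1a array, and ITGA2 lies below the background level on all LNCaP arrays.

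In PNT1a, ITGA2, ITGA3, ITGB1, ITGB4 and ITGB5 were higher in HIP1-labelled arrays by at least 1 probe, and ITGAV was lower. Of the 10 probes tested, 5 were called higher and 1 lower (limma, Benjamini-Hochberg adjusted p under 0.05), which is 60%, against 27.5% of the 12216 probes tested in the line (14.2% higher, 13.4% lower). The groups did not overlap for 3 of the 10, all higher, against 15.4% of all tested probes (7.93% higher). The median difference of the 10 was 0.46, and that of all tested probes 0.00. The 10 probes stand for 7 genes and were kept by signal in either group, so the share is a description. In bulk RNA fewer cells with a transcript and less of it per cell cannot be told apart.

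ITGA2, the alpha subunit of the collagen receptor, had the largest difference of the members. Its probe ILMN_1665792 ran from 7.34 to 8.21 with a median of 7.98 in PNT1a HIP1-labelled arrays, and from 6.95 to 7.17 with a median of 7.02 in PNT1a vector arrays. Every HIP1-labelled array lay above every vector array, and 4 of the 6 vector arrays were above the background level. The difference was 0.80 ± 0.14 (SE; 95% interval 0.49 to 1.11), 1.74-fold, with adjusted p = 0.000926. HIP1-labelled arrays 3 and 4 were the lowest of their group at 7.46 and 7.34.

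ITGA3, which with ITGB1 forms a laminin receptor, also rose. Probe ILMN_1685397 ran from 10.68 to 11.67 (median 11.06) in PNT1a HIP1-labelled arrays and from 10.48 to 10.89 (median 10.50) in PNT1a vector arrays. Among vector arrays only array 6, at 10.89, reached into the range of the HIP1-labelled arrays. The difference was 0.49 ± 0.15 (SE), with adjusted p = 0.0239. Leaving out HIP1-labelled array 6, the highest at 11.67, gave 0.37 with adjusted p = 0.0156, and leaving out vector array 3 gave 0.47 with adjusted p = 0.0505.

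ITGA5, the alpha subunit of the fibronectin receptor, was not called. Probe ILMN_1792679 ran from 8.93 to 9.68 (median 9.05) in PNT1a HIP1-labelled arrays and from 9.22 to 9.88 (median 9.44) in PNT1a vector arrays, and the groups overlapped. The difference was -0.31 ± 0.15 (SE; interval -0.62 to 0.00, adjusted p = 0.132). Arrays 6 were the highest of both groups, and without them the difference was -0.33 with adjusted p = 0.00785.

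ITGAV, the alpha subunit of the vitronectin receptors, was the called member that fell. Probe ILMN_2169439 ran from 7.44 to 7.89 (median 7.72) in PNT1a HIP1-labelled arrays and from 7.75 to 8.23 (median 7.99) in PNT1a vector arrays. The ranges overlapped through vector array 6 at 7.75, which lay under HIP1-labelled arrays 3 and 5 at 7.80 and 7.89. The difference was -0.30 ± 0.10 (SE; interval -0.52 to -0.09, adjusted p = 0.0362). For 8 of the 12 arrays, dropping that array ended the call (adjusted p at most 0.0809).

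ITGB1, the beta subunit shared by most matrix receptors, gave 2 bright probes, of which 1 was called. Probe ILMN_1723467 ran from 12.73 to 13.38 (median 12.86) in PNT1a HIP1-labelled arrays and from 12.37 to 12.71 (median 12.44) in PNT1a vector arrays, with no overlap. Its difference was 0.44 ± 0.11 (SE), with adjusted p = 0.0117. Probe ILMN_1714820 ran from 8.96 to 11.46 (median 11.14) in PNT1a HIP1-labelled arrays and from 9.37 to 10.64 (median 10.48) in PNT1a vector arrays. Its lowest values in each group, 8.96 and 9.37, were those of arrays 6, on which the first probe had its highest. The second probe's difference was 0.48 ± 0.37 (SE; interval -0.32 to 1.28, adjusted p = 0.388), and without both arrays 6 it was 0.66 with adjusted p = 6.29e-05. Over the 12 arrays the deviations of both probes from their group means correlated at -0.81, and over the 10 arrays other than 6 at 0.39. These correlations rest on few arrays that share clusters.

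ITGB4, the hemidesmosome subunit, rose near the background by its 1 tested probe. Its other probes were dim and were not tested. Probe ILMN_2334210 ran from 7.56 to 8.27 (median 7.66) in PNT1a HIP1-labelled arrays and from 6.37 to 7.56 (median 7.28) in PNT1a vector arrays, and 4 of 6 vector arrays were above the level. The highest vector array lay just under the lowest HIP1-labelled array. The difference was 0.62 ± 0.19 (SE), 1.54-fold, with adjusted p = 0.0270. Array 6 was the highest of the HIP1-labelled group at 8.27 and the lowest of the vector group at 6.37, and without both the difference was 0.37 with adjusted p = 0.0142. The call was lost without vector array 1, at 0.56 with adjusted p = 0.0596.

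ITGB5, a vitronectin-binding partner of ITGAV, was read by 3 bright probes, all positive. Probe ILMN_1668374 ran from 11.19 to 11.66 (median 11.46) in PNT1a HIP1-labelled arrays and from 10.44 to 11.31 (median 10.98) in PNT1a vector arrays, and the groups overlapped. Its difference was 0.54 ± 0.17 (SE), with adjusted p = 0.0280, and dropping any of 5 arrays ended the call (adjusted p at most 0.0633). The other probes were not called, ILMN_2311166 at 0.43 (adjusted p = 0.0526) and ILMN_1796755 at 0.34 (adjusted p = 0.165). Probe ILMN_2311166 was called when any of 4 single arrays was left out (adjusted p as low as 0.0288). Across the 12 PNT1a arrays the deviations of the 3 probes correlated at 0.96, 0.82 and 0.84, so they vary together from array to array.

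**Figure D2:**
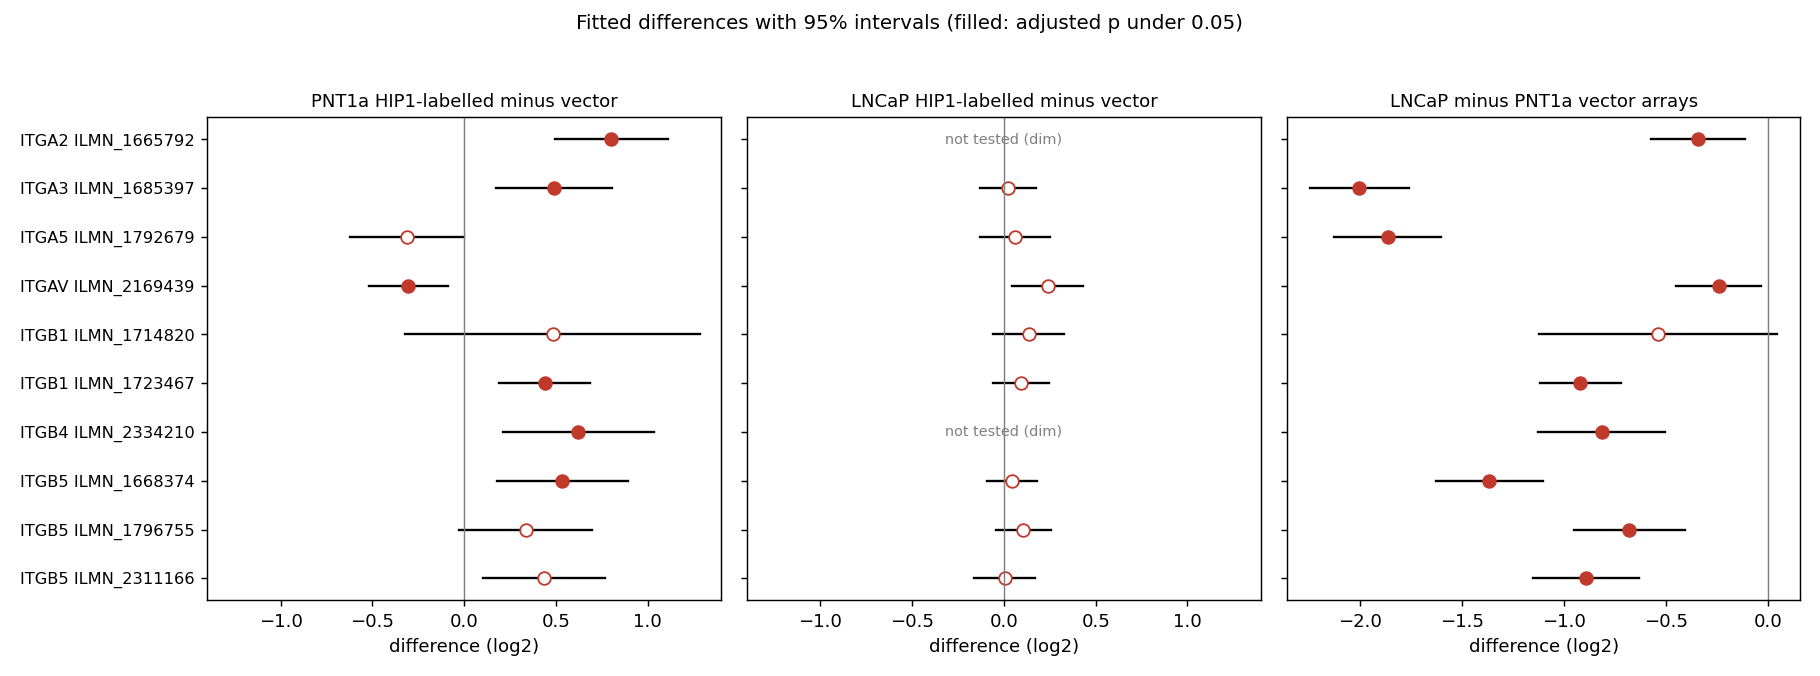
Fitted differences (log2, horizontal axis) with 95% intervals for the 10 integrin probes in PNT1a (left), LNCaP (middle) and between vector arrays of the lines (right), with filled points for adjusted p under 0.05. The left panel has 6 filled points and the middle panel 0, and all 10 points of the right panel lie below 0.

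Differences were also taken inside the clusters of PNT1a arrays. Within clusters 1, 2 and 3 the HIP1-labelled minus vector difference of ITGA2 was 0.43, 0.93 and 1.15, and that of ITGA3 was 0.23, 0.56 and 0.78. ITGAV was lower in HIP1-labelled arrays in each cluster, by -0.45, -0.21 and -0.31, with no overlap of arrays in clusters 1 and 2. Cluster 3 holds 1 array of each group, so overlap cannot occur there. ITGA2, ITGA3, ITGB4, the called ITGB1 and ITGB5 probes and ITGB5 ILMN_2311166 did not overlap in clusters 1 and 2 either. All of these were higher in HIP1-labelled arrays. For ITGB4 in cluster 2 the split was 7.558 (lowest HIP1-labelled) against 7.557 (highest vector). Clusters 1 and 2 hold only 2 and 3 arrays of each group, where arrays part easily. The share of all tested probes without overlap there was not taken, so the lack of overlap is a description. The called ITGB5 probe gave 0.67, 0.34 and 0.86, and the called ITGB1 probe 0.30, 0.45 and 0.67. The other ITGB1 probe gave 0.50, 0.76 and -0.40, so its sign differed on arrays 6 alone. The ITGB4 differences were 0.66, 0.17 and 1.90, and the ITGA5 differences -0.44, -0.26 and -0.21.

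With the clusters as a block all 10 member probes were called, 8 higher and 2 lower, among 5813 called of the 12216 probes tested. The clusters were drawn from these arrays, and a block removes the spread between them by construction. Without both arrays 6, 9 of the 10 probes were called, among 5515 called of the 12216 probes tested.

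**Figure D3:**
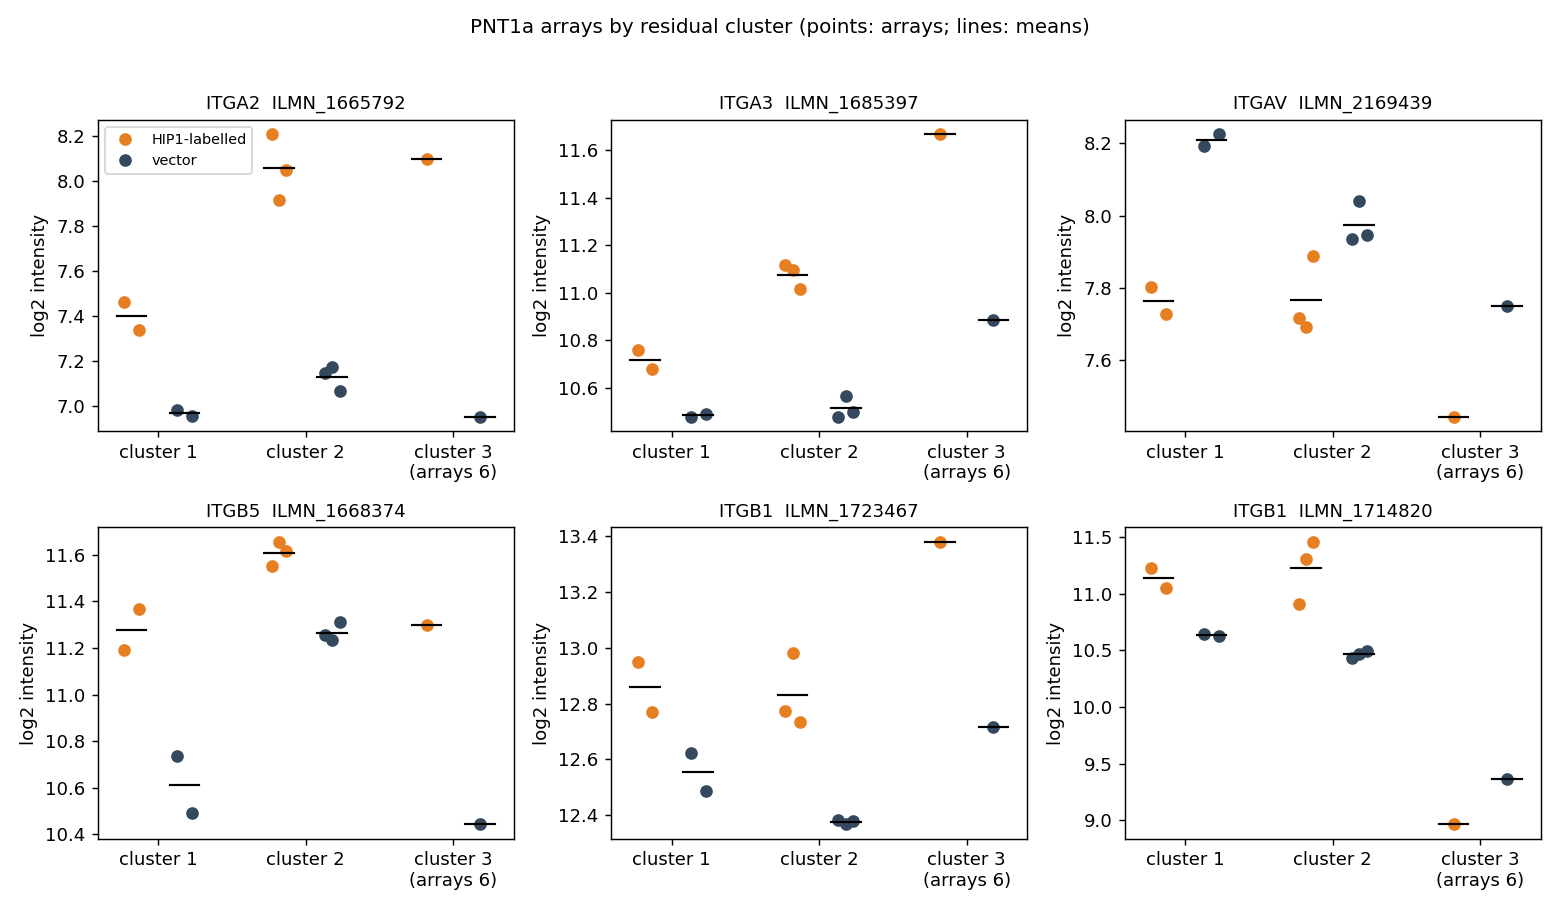
Log2 intensity (vertical axis) of 6 integrin probes on PNT1a arrays by residual cluster (horizontal axis), with HIP1-labelled arrays to the left of vector arrays and lines for means. ITGAV is lower in HIP1-labelled arrays in all 3 clusters, and ITGB1 ILMN_1714820 changes sign in cluster 3, where it is -0.40.

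Over the 12 PNT1a arrays, a few genes that are not members tracked the 3 called members with the largest absolute differences. They were picked by Pearson r among 10679 tested probes with a single symbol. ITGA2 was followed by NDUFAF3, a complex I assembly factor (0.98), PODN, a matrix proteoglycan (0.98), and NIPAL4, a magnesium transporter (0.98). ITGB4 was followed by the type IV collagen gene COL4A1 (0.96), the cadherin CDH3 (0.94) and the vitronectin gene VTN (0.94). ITGB5 was followed by the syntaxin gene STX10 (0.97), the lysosomal protease CTSB (0.96) and NAXE, which repairs hydrated NAD(P)H (0.95). All 12 arrays share the group difference and the clusters, so these values describe likeness only.

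Other genes of integrin adhesion, listed by role, moved both ways in PNT1a. Of the 85 listed genes, 54 had a brightest probe that was tested. Of these, 10 were called higher and 9 lower (35.2%, against the 27.5% of all tested probes). Listed genes count here and below by their brightest probe alone, while shares of all count every tested probe. Among the members' ligands, 4 of 14 were higher and 1 lower, with a median of 0.24. VTN, vitronectin, a ligand of ITGAV pairs, averaged 9.87 in HIP1-labelled arrays and 8.52 in vector arrays, a rise of 1.34 ± 0.41 (SE, adjusted p = 0.0251). On vector array 6 VTN was at 6.39, and without both arrays 6 the difference was 0.79 with adjusted p = 0.000397. COL4A1 rose by 0.68 and COL4A2, its partner chain, by 0.42 (adjusted p = 0.0465, at most 0.0975 where dropping any of 9 arrays ended the call). LAMA5, a laminin alpha chain bound by ITGA3 with ITGB1, fell by 0.84 ± 0.13 (SE, adjusted p = 0.000306), with no overlap of arrays. The fibronectin gene FN1, ligand of ITGA5 with ITGB1, was below the level on every array by its brightest probe.

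Of 16 other integrin subunit genes, 2 were tested in PNT1a. ITGB2, the leukocyte beta subunit, fell to 9.97 ± 0.37 in HIP1-labelled arrays, against 10.61 ± 0.06 in vector arrays (difference -0.64, adjusted p = 0.00475). Its array 6 of the HIP1-labelled group was at 10.69, within the vector range, and the other 5 were at 9.72 to 9.99. The leukocyte partners of ITGB2, ITGAL and ITGAM, were below the level on every array of all 4 groups. The leukocyte list held 8 measured genes, among them ITGB2 itself and the haemoglobin gene HBA2, which is not a leukocyte marker. Of these 8, 3 were above the level on all HIP1-labelled arrays and 4 on all vector arrays. Means over the list were 7.57 to 7.97 per HIP1-labelled array and 7.75 to 8.07 per vector array. Of the 4 listed genes tested, 3 were called lower in HIP1-labelled arrays, against 13.4% of all tested probes. They were ITGB2, CD68 (-0.72) and HBA2 (at least 1.18-fold lower, with every HIP1-labelled array below the level). HBA2 passed the filter through the vector arrays alone, so its direction was set by the filter. With ITGB2 being the gene in question, the count of 3 is not a result about leukocyte markers. CD14 was at 0.53 (adjusted p = 0.271), so apart from ITGB2 and HBA2 the list had CD68 lower and CD14 not called. Of 5 tested mesenchymal and fibroblast markers 2 were called lower, VIM (-0.83) and THY1 (-1.03), and 0 higher. The 3 not called went both ways. SPARC averaged 11.33 ± 0.38 in HIP1-labelled arrays and 10.31 ± 1.09 in vector arrays, PDGFRB 9.85 and 9.75, and COL1A1 7.49 and 7.83. The part of these cell markers in the ITGB2 difference and in the other list differences was not tested. ITGAE, the alpha subunit that binds E-cadherin, was at 0.31 (adjusted p = 0.231).

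Cytoplasmic adaptors and kinases had 4 higher and 5 lower of 21, with a median of -0.07. TNS3, a tensin that links beta tails to actin, rose by 1.24 ± 0.26 (SE, adjusted p = 0.0028). FYN, a Src-family kinase, fell by 1.06 (adjusted p = 2.19e-05), with a value that rests on HIP1-labelled arrays of which 1 of 6 was above the level, against 6 of 6 vector arrays. ACTN1, the crosslinker alpha-actinin, fell by 0.74, and PTK2, focal adhesion kinase, fell by 0.63 ± 0.08 (SE, adjusted p = 3.86e-05). The talin gene TLN1 was at -0.13 (adjusted p = 0.344) and the kinase gene SRC at 0.12 (adjusted p = 0.645).

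Hemidesmosome and tetraspanin partners had 1 higher and 0 lower of 7, with a median of 0.25. The tetraspanin CD82 rose by 0.83 ± 0.15 (SE, adjusted p = 0.000779), while CD151, the tetraspanin bound to ITGA3, was at 0.29 (adjusted p = 0.0713) and PLEC, plectin, at -0.41 (adjusted p = 0.144). Genes of inhibition and trafficking had 1 higher and 2 lower of 10, with a median of 0.16. ARRB1, an endocytic arrestin, rose by 0.86 ± 0.09 (SE, adjusted p = 6.49e-06). CD47, which associates with ITGAV pairs, fell by 0.63, and RAB21, which carries beta-1 integrins through endosomes, fell by 0.39.

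**Figure D4:**
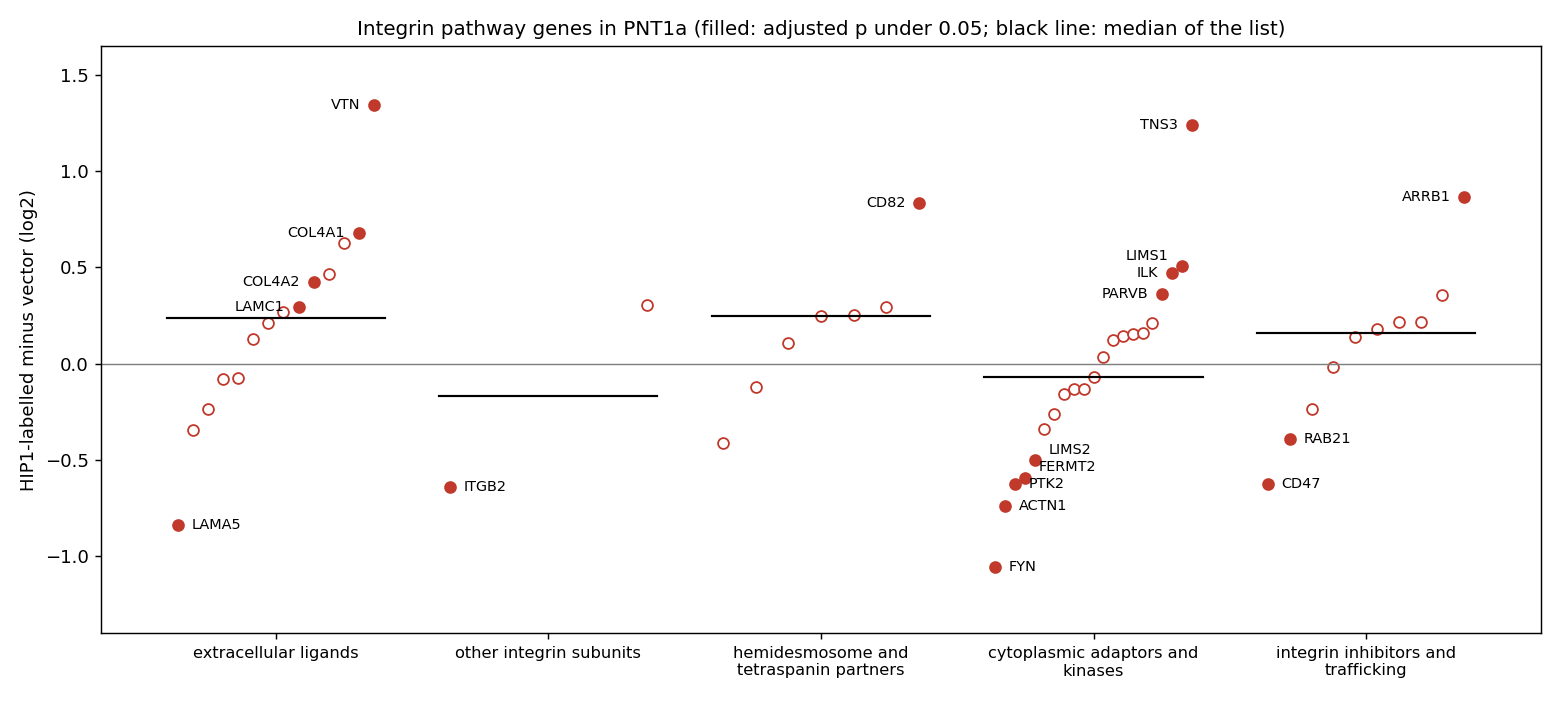
PNT1a difference of each tested gene of 5 integrin lists (HIP1-labelled minus vector, log2, vertical axis) by list (horizontal axis), with filled points for adjusted p under 0.05, names for these, and black lines for list medians. VTN at 1.34 and TNS3 at 1.24 are the highest points and FYN at -1.06 the lowest.

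In LNCaP no integrin probe was called. Of the 8 probes tested, 0 passed, against 7.33% of the 12012 probes tested that limma called (3.15% higher, 4.18% lower). An unadjusted p under 0.05 was reached by 1 of the 8, against 21.7% of all tested probes. All 8 differences were positive and ran from 0.00 to 0.24, with a median of 0.08 against 0.01 for all tested probes. A self-test on simulated LNCaP arrays (12012 probes) recovered 91.0% of changes of 0.5. That was the smallest change made, and it exceeds all 8 member differences, so recovery at their size was not tested. Noise was simulated for each probe alone, without clusters of arrays.

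ITGAV had the largest of these differences. It ran from 7.79 to 8.18 (median 8.06) in LNCaP HIP1-labelled arrays and from 7.50 to 7.97 (median 7.85) in LNCaP vector arrays, and the groups overlapped. The difference was 0.24, with an interval of 0.04 to 0.43 and adjusted p = 0.133. For ITGA3 the interval was -0.13 to 0.17, for ITGA5 -0.13 to 0.25, and for the ITGB1 probes -0.06 to 0.33 (ILMN_1714820) and -0.06 to 0.25 (ILMN_1723467). The ITGB5 intervals were -0.09 to 0.18 (ILMN_1668374), -0.04 to 0.26 (ILMN_1796755) and -0.16 to 0.17 (ILMN_2311166).

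ITGA2 and ITGB4 were below the level on all 12 LNCaP arrays. ITGA2 ran from 6.56 to 6.76 in LNCaP HIP1-labelled arrays and from 6.56 to 6.83 in LNCaP vector arrays, and ITGB4 from 6.29 to 6.57 in HIP1-labelled arrays and from 6.11 to 6.60 in vector arrays. Only bounds can be had for them. Of 35 pathway genes tested in LNCaP, 1 was called, which is 2.86%, against 7.33% of the 12012 probes tested in the line. LAMA5 rose by 0.29 (adjusted p = 0.00657), with means of 10.30 in HIP1-labelled arrays and 10.01 in vector arrays.

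The difference between the lines' differences was tested in a fit over all 24 arrays. Of the 8 probes tested in both lines it was called for 2, ITGAV and ITGA3, which is 25%, against 22.4% of the 10298 probes tested in both lines. Over all 10 probes it was called for 3, 1 higher and 2 lower, against 22% of the 13930 probes tested in either line (10.5% higher, 11.5% lower). The third was ITGA2 at -0.86 (adjusted p = 0.000219), which was below the level on all 12 LNCaP arrays, so this value sets the PNT1a difference against an LNCaP difference that was not measured. For ITGAV the LNCaP minus PNT1a difference of differences was 0.54 (interval 0.25 to 0.84, adjusted p = 0.00733), from 0.24 in LNCaP against -0.30 in PNT1a. For ITGA3 it was -0.47 (adjusted p = 0.0443), and dropping any of 17 of the 24 arrays ended this call (adjusted p at most 0.0811). LAMA5 had 1.13 (adjusted p = 1.41e-06), from 0.29 in LNCaP against -0.84 in PNT1a. The called ITGB5 probe missed the threshold at -0.49 (adjusted p = 0.0516), as did the called ITGB1 probe at -0.35 (adjusted p = 0.0719).

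Between vector arrays of the lines, signal of the tested members was lower in LNCaP. Of 2 other integrin subunits tested, 1 was higher in LNCaP (ITGAE) and 1 lower (ITGB2). Of the 10 probes 9 were called, all lower, which is 90%, against 75.8% of the 13930 probes tested (39.3% higher, 36.5% lower). The arrays did not overlap for 7 of the 10, against 58.3% of all (27.6% lower). ITGA2 and ITGB4 passed the filter through PNT1a alone, so their being lower in LNCaP was set by the filter. Of the 8 probes tested in both lines 7 were lower and 0 higher, against 71% called of the 10298 such probes (38.4% higher, 32.6% lower). The lines also differ in how they were transfected and in the selection drug, which cannot be told apart from the line.

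ITGA3 differed most, running from 8.40 to 8.79 (median 8.50) in LNCaP vector arrays and from 10.48 to 10.89 (median 10.50) in PNT1a vector arrays. The difference was -2.00 ± 0.12 (SE, adjusted p = 3.56e-14), 4.01-fold lower in LNCaP. ITGA5 ran from 7.33 to 7.89 (median 7.58) in LNCaP vector arrays and from 9.22 to 9.88 (median 9.44) in PNT1a vector arrays. Its difference was -1.86 (adjusted p = 7.80e-13), 3.64-fold lower in LNCaP, again with no overlap.

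The ITGB5 probes were lower in LNCaP by -1.37 (ILMN_1668374), -0.89 (ILMN_2311166) and -0.68 (ILMN_1796755). ITGB1 ILMN_1723467 ran from 11.38 to 11.74 in LNCaP vector arrays and from 12.37 to 12.71 in PNT1a vector arrays, a difference of -0.92 (adjusted p = 3.77e-09). The other ITGB1 probe was at -0.54 (adjusted p = 0.0868), and without PNT1a vector array 6 at -0.74 (adjusted p = 0.0161). ITGAV differed least, by -0.24 (adjusted p = 0.0341), with overlapping arrays and a call that ended on dropping any of 5 arrays. ITGB4 was at least 1.12-fold lower and ITGA2 at least 1.05-fold lower in LNCaP, with each LNCaP array's value set to the level.

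Taking all 4 groups, ITGA3, ITGB5 ILMN_1668374 and ITGB1 ILMN_1723467 had the same order of means, PNT1a HIP1-labelled above PNT1a vector above LNCaP, with LNCaP HIP1-labelled and LNCaP vector arrays not differing beyond their spread. ITGA5 had PNT1a vector at the top (9.47 ± 0.25) and PNT1a HIP1-labelled arrays next (9.15 ± 0.28), which did not pass the test. ITGAV ran another way, with PNT1a vector arrays (8.02 ± 0.18) and LNCaP HIP1-labelled arrays (8.01 ± 0.17) above LNCaP vector arrays (7.77 ± 0.21) and PNT1a HIP1-labelled arrays (7.71 ± 0.15). The ranges of the first pair overlapped, as did those of the second, and ranges also overlapped across the pairs. Between the LNCaP groups the ITGAV difference was not called (limma, adjusted p = 0.133).

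Among 15 adaptors and kinases tested in both lines, 12 were lower and 3 higher in LNCaP vector arrays, with a median of -0.88, against 32.6% lower and 38.4% higher of all probes tested in both lines. The other 6 of the list were tested in 1 line alone, so their direction was largely set by the filter. TNS3 was lower by -3.91 and above the level on 2 of 6 LNCaP vector arrays, and the kindlin gene FERMT2 was lower by -2.57. Of 14 ligands, 4 were tested in both lines, 2 lower and 2 higher, and 9 were below the level on every LNCaP vector array. CCN2, a matrix protein bound by ITGAV pairs, was at least 56.6-fold lower in LNCaP, COL4A1 at least 7.91-fold lower and LAMB3, a chain of the laminin of hemidesmosomes, at least 5.35-fold lower. Of 9 trafficking genes tested in both lines 3 were higher and 4 lower. RAB25, which binds ITGB1, was at least 14.7-fold higher in LNCaP, and DAB2, an endocytic adaptor of integrins, at least 5.91-fold lower. CCN2, COL4A1, LAMB3 and DAB2 were below the level on every LNCaP vector array, and RAB25 on every PNT1a vector array. These genes passed the filter largely through the other line, so their direction was largely set by the filter. The tetraspanin CD9 was higher in LNCaP by 1.11 and TSPAN4 lower by -1.54. ITGB2 was lower in LNCaP by -3.69 and above the level on 2 of 6 LNCaP vector arrays, and ITGAE was higher by 0.95.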

How the data were processed

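The deposited value table holds log2 intensity for 48803 probes with 0 missing values, and its 24 sorted columns differ by at most 0.0517, so the authors' values share a single distribution. No label or header names the software or the normalization. A deposited raw intensity table has 49895 entries under numeric identifiers. Its 6 columns for LNCaP HIP1-labelled arrays were used to check the scale (deposited minus raw percentiles -0.117 to 0.183), and 18 value columns whose names match no single label were not used.

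Background was set at 6.97, which is 3 SDs (0.163 each, from values under the mode) above the mode of the table, 6.48. Probes above it on at least 6 of the 12 arrays of a line were tested with limma 3.58.1 in R 4.3.3, each line alone for HIP1-labelled minus vector (12216 probes in PNT1a, 12012 in LNCaP), and all 24 arrays with 4 group means for the contrast between lines and the difference of differences (13930 probes). P-values are two-sided and were adjusted by Benjamini-Hochberg over all probes tested, at 0.05. The fit of a line alone was checked on simulated arrays in which 200 probes changed: in PNT1a (12216 probes) changes of 0.5, 1 and 2 were recovered in 61.2%, 89.6% and 100%, with 13 false of 180 calls. The simulated noise was drawn for each probe alone, so the clusters of arrays were not part of this check.

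Symbols come from the platform annotation (28098 probes with 1 symbol, 13 with several, 20692 with none), and 28059 gene IDs matched RefSeq with 0 symbols changed. Probes of a member were kept apart, and other genes are given by their brightest probe. Named genes are all members, HIP1, of each pathway list up to 4 called genes with the largest differences and up to 2 uncalled genes, the 3 genes most like each of the 3 called members with the largest PNT1a differences, and line markers. FN1, ITGAL, ITGAM, CD68, CD14, HBA2, THY1, SPARC, PDGFRB and COL1A1 are named beyond this rule, after their values were seen. Of the pathway and marker genes, 11 had no named probe. The members, lists and tests were chosen with earlier results of these data known. The number of arrays limits the precision. Promoter sequences are RefSeq's, on GRCh38.p14.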

Additional observations from a re-analysis of the deposited data

Results flagged for a closer look

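Within groups of 6 arrays, 14 of the 70 groups of values looked at held an array far from the rest by Dixon's ratio. Chance gives about 1 in 20 for a group taken alone. The 70 groups were read on the same arrays and are not independent, so the count is not weighed against that rate. Of the 14, 13 were PNT1a arrays numbered 6. In the PNT1a HIP1-labelled group, array 6 was at 8.96 for ITGB1 ILMN_1714820 (others 10.91 to 11.46), 8.27 for ITGB4, 7.10 for HIP1 (others 7.83 to 8.09), 12.25 for ACTN1, 10.50 for VTN, 11.74 for LAMA5 and 10.69 for ITGB2. In the PNT1a vector group, array 6 was at 10.89 for ITGA3 (others 10.48 to 10.56), 9.37 for ITGB1 ILMN_1714820, 9.43 for TNS3 (others 10.96 to 11.18), 8.37 for FYN, 6.39 for VTN and 9.30 for COL4A1. In LNCaP, vector array 1 was at 7.57 for ITGB5 ILMN_1796755 (others 7.37 to 7.44).

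The HIP1-labelled minus vector difference itself differed between the lines for 15 of the 23 probes named from PNT1a, given as LNCaP minus PNT1a with limma's adjusted p under 0.05. Of all 13930 probes tested in either line, 22% were called. Among the 10 member probes the 3 called were ITGA2 (-0.86), ITGA3 (-0.47) and ITGAV (0.54). The contrast was also negative for VTN (-1.32), TNS3 (-1.30), ARRB1 (-0.90), CD82 (-0.88) and COL4A1 (-0.75). It was positive for FYN (1.24), LAMA5 (1.13), PTK2 (0.79), CD47 (0.70), ACTN1 (0.70), ITGB2 (0.67) and RAB21 (0.49). ITGA2, VTN, COL4A1 and FYN were below the level on all 12 LNCaP arrays and TNS3, CD82 and ITGB2 on some arrays of both LNCaP groups, so their LNCaP difference was not measured or only in part. The probes other than the members' were picked for their PNT1a difference, which enters this contrast.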

How the results depend on the processing

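The count of members called in PNT1a (6) was 10 with the residual cluster as a block, 3 with no filter on dim probes (48803 probes in the adjustment) and 3 to 9 on leaving out 1 array, the 3 coming without vector array 1 and the 9 without HIP1-labelled array 6. All called probes in PNT1a (3364) were 5515 without both arrays 6, 5813 with the cluster block, 6050 with weights per array and 2822 to 4681 on leaving out 1 array. The pathway count (19) was 34 with the cluster block and 17 to 26 on leaving out 1 array. In LNCaP the 880 called probes were 235 with a spread shared over both lines, 549 with no filter and 519 to 1193 on leaving out 1 array (519 without HIP1-labelled array 2, 585 and 583 without vector arrays 2 and 5), and the pathway count (1) was 0 with the shared spread, 2 with weights per array and 1 to 2 on leaving out 1 array (2 without vector array 6 or HIP1-labelled array 4). For the difference of differences the member count (3) was 7 without both arrays 6, 8 with the cluster block, 6 with weights per array and 2 to 6 on leaving out 1 array (5 without PNT1a HIP1-labelled array 3, 6 without HIP1-labelled array 6). The count of all probes (3060) was 4628, 4939 and 5105 in these 3 settings and 2780 to 4156 on leaving out 1 array.

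In an alternative chosen after seeing the data, limma's prior of the spread was drawn from all 48803 probes: PNT1a then had 4093 called probes and 7 member probes (ITGB5 ILMN_2311166 added, adjusted p = 0.0310), LNCaP 1065 and 0, the difference of differences 3480 and 4 (ITGB5 ILMN_1668374 added, adjusted p = 0.0343) and the lines 10750 and 9. In PNT1a 218 of 260 comparisons of a member with an alternative kept direction and call, 18 lost and 24 gained the call, and 0 turned. ITGA2 and ITGB1 ILMN_1723467 kept their PNT1a calls under all 26 alternatives. In LNCaP, near 0, ITGB5 ILMN_2311166 (0.00) was -1.2e-05 with cyclic loess and -0.061 to 0.041 on leaving out 1 array, and ITGA3 (0.02) was -0.011 to 0.068. Same replicate numbers did not pair the arrays (correlations of -0.04 to 0.70 in PNT1a and -0.24 to 0.32 in LNCaP, with 1 and 2 of 6 numbers correlating best with their own). With the replicate number as a block, ITGA5 (adjusted p = 0.0309) and ITGB1 ILMN_1714820 (adjusted p = 0.0335) were also called in PNT1a, and the member count of the difference of differences was 5. The cluster block was not run between lines, since each cluster lies within a line. The causes of these shifts were not tested.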
